A study of Caenorhabditis elegans with 6 samples.

Results

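Genes of heme transport and the gene of the cytochrome P450 reductase were followed in whole Caenorhabditis elegans exposed to albendazole. The genes were chosen by symbol, hrg-1 to hrg-7 and emb-8, from probe sets that the platform annotation assigns to 1 gene only. Of these 8 genes, 5 had such a probe set, with 1 probe set each: hrg-1, hrg-3, hrg-4, hrg-7 and emb-8. They are 5 of 22548 probe sets and 5 of 17118 genes. The genes hrg-2, hrg-5 and hrg-6 were not matched to a probe set by this rule and are not analysed here. The comparison of albendazole with the solvent was already known when the set was proposed, so the members' values in it are given as a description, and where the fit across all probe sets counts some of them as called, that count supports nothing.

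The treated worms were exposed for 4 h to 300 µg/ml of the anthelmintic drug albendazole (ABZ) in 1.5% DMSO by volume, and the controls to 1.5% DMSO alone, with 3 biological replicates in each group. All 6 cultures were strain CB3474, which carries ben-1(e1880) III, a mutation in the β-tubulin gene through which benzimidazole drugs act on the worm. Every array therefore shows worms with that mutation, and no culture without it was compared. Each culture started from about 10000 larvae of the first stage and was kept in liquid medium at 20 °C until 70 h, and RNA of whole worms was hybridised to Affymetrix arrays. In whole-worm RNA, fewer cells of a type and less transcript per cell cannot be told apart.

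C. elegans does not make heme and takes it from its food, so every heme protein of the worm depends on transport out of the gut. HRG-4 imports heme across the apical membrane of intestinal cells and HRG-1 releases it from lysosome-related organelles inside them. HRG-3 is a small secreted protein that carries maternal heme to oocytes and embryos, and HRG-7 is a secreted relative of aspartic proteases that signals heme status between tissues. Several hrg genes are known for transcript levels that rise when heme is scarce. EMB-8 is the NADPH-dependent reductase that passes electrons to the heme iron of the microsomal cytochromes P450, and it is needed in the embryo.

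One control array, DMSO replicate 1, was unlike the rest. Its correlation with them over all probe sets was 0.934 to 0.943, while each of the others reached at least 0.992 with its closest array. It was the lowest of the 6 arrays on 47.1% of the probe sets and the highest on 36.7%. Results are therefore given with and without it. Both arrays numbered 1 also stood out in sperm transcripts. The log2 of the summed signal of msp-3, msp-19 and spe-11, 3 of the 4 sperm markers looked for, was 14.07, 11.95 and 11.94 in ABZ replicates 1 to 3 and 13.74, 12.19 and 11.67 in DMSO replicates 1 to 3. The dimmest of these markers was spe-11, at 5.71 to 6.47 with ABZ and 5.56 to 5.93 with DMSO. Markers of the intestine, the main site of hrg-1 and hrg-4, were read too. The gut esterase gene ges-1 stood at 9.03, 9.79 and 8.97 in ABZ replicates 1 to 3 and at 8.60, 9.52 and 9.58 in DMSO replicates 1 to 3. The gut protease gene cpr-1 stood at 12.98, 14.25 and 12.95 with ABZ and at 12.61, 14.29 and 13.48 with DMSO. Both ges-1 and cpr-1 thus varied within each group. The intestine marker elt-2 was steadier, at 8.49, 8.48 and 8.34 with ABZ and at 8.41, 8.42 and 8.39 with DMSO. The marker vit-2 stood at 12.87, 13.06 and 12.85 with ABZ and at 12.50, 12.87 and 12.91 with DMSO. The log2 of the summed signal of the 7 intestine markers was 16.59 to 16.80 with ABZ and 16.52 to 16.75 with DMSO; it rests mostly on vit-5, vit-6 and asp-1, which lie near the top of the arrays' range, where a change may not show.

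Signal was higher with albendazole on average for all 5 genes, by 1.26- to 1.69-fold, and the median log2 difference (ABZ minus DMSO) was 0.48, against 0.02 over all 17118 genes. Bright probe sets shifted up as a whole with all 6 arrays: over the 1000 probe sets closest in mean signal the median difference was 0.25 around hrg-1, 0.22 around hrg-7 and 0.25 around emb-8, and it was -0.11 around hrg-3 and -0.13 around hrg-4. In limma's fit of the 22548 probe sets, 0 of the 5 genes were called higher at a Benjamini-Hochberg adjusted p under 0.05, as were 0% of all probe sets, and the smallest adjusted p in the table was 0.651. At an unadjusted p under 0.05, 2 of the 5 counted as higher, hrg-1 and hrg-7, where 1.52% of all probe sets did (343 of 22548). All 3 ABZ values lay above all 3 DMSO values for 4 of the 5, hrg-3 being the exception, and for 7.81% of all probe sets. Nothing is read from these counts, since the same contrast was in view when the genes were chosen.

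**Figure D1:**
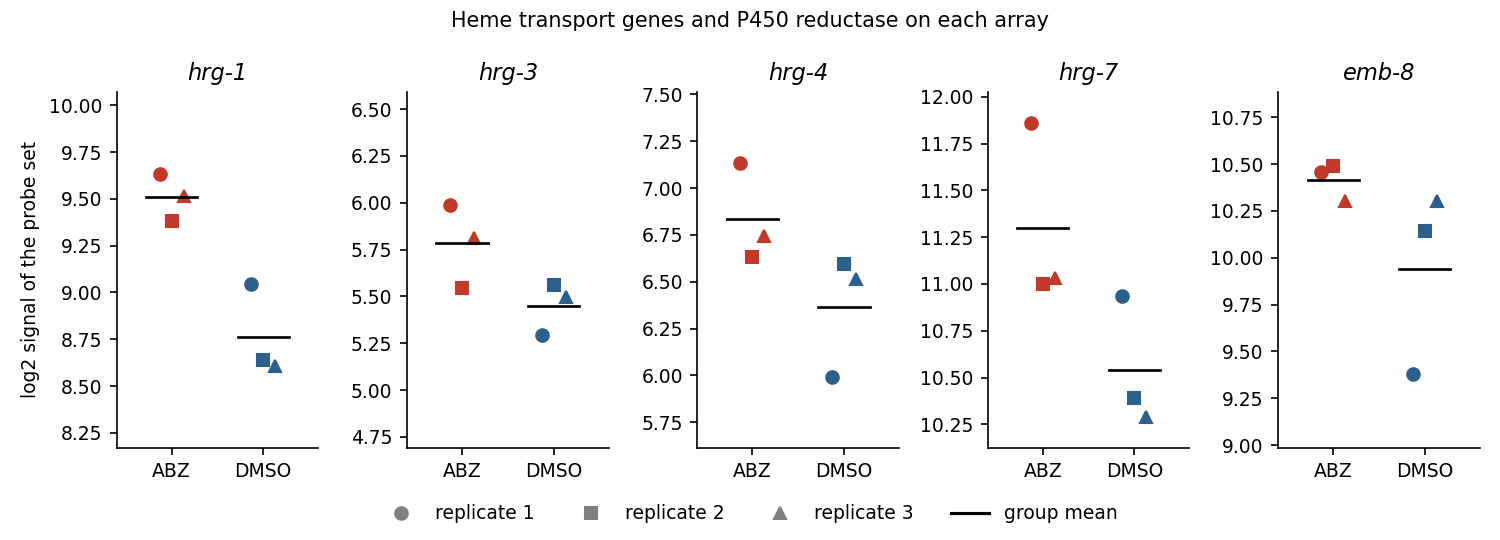
Log2 signal of the probe set of each gene (vertical axes, each spanning the same number of log2 units) on the 3 ABZ arrays in red and the 3 DMSO arrays in blue; the symbol gives the replicate number and the black line the group mean. The ABZ arrays of hrg-1 lie at 9.38 to 9.63, clear of the DMSO arrays at 8.61 to 9.05, whereas the ABZ mean of emb-8 stands apart from its DMSO mean mainly through DMSO replicate 1 at 9.38.

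The intestinal heme transporter gene hrg-1 (NCBI gene 180684) had a log2 signal of 9.63, 9.38 and 9.51 in ABZ replicates 1 to 3. In DMSO replicates 1 to 3 it was 9.05, 8.64 and 8.61. The 2 sets of values did not overlap, with 0.34 between the lowest ABZ and the highest DMSO array, the widest such gap of the 5 genes. The mean was 9.51 ± 0.13 over the ABZ arrays and 8.76 ± 0.24 over the DMSO arrays (SD, n = 3 each), which gives a log2 difference of 0.74 (SE 0.15) or 1.68-fold. Without DMSO replicate 1 the difference was 0.89 (SE 0.09) or 1.85-fold, and without replicate 1 of both groups it was 0.82 (SE 0.07). Leaving out replicate 1 of both groups was an alternative added after the values had been seen. With array weights hrg-1 was the 1 member called, among 25 probe sets called higher (0.111%) with the default method and 5 (0.0222%) with the gene-by-gene method, and as above nothing is read from this. The default weights of DMSO replicates 1, 2 and 3 were 0.043, 10.4 and 0.61, which leaves DMSO replicate 2 as nearly the whole control. With the gene-by-gene method the weights of these arrays were 0.043, 3.83 and 1.47. With DMSO replicate 1 simply left out, 0 members were called.

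The importer gene hrg-4 (gene 185380) encodes the protein that brings dietary heme into the gut cell. Its log2 signal was 7.13, 6.63 and 6.74 in ABZ replicates 1 to 3, against 5.99, 6.59 and 6.51 in DMSO replicates 1 to 3. The sets did not overlap, but only 0.042 separated ABZ replicate 2 and DMSO replicate 2, which is less than the gap of 0.080 between DMSO replicates 2 and 3. The mean was 6.84 ± 0.26 over the ABZ arrays and 6.37 ± 0.33 over the DMSO arrays (SD, n = 3 each), which gives a log2 difference of 0.47 (SE 0.21). Without DMSO replicate 1 the difference was 0.28 (SE 0.15). The highest ABZ array and the lowest DMSO array both carried the number 1, and without these 2 arrays the difference was 0.14 (SE 0.07). The 3 genes hrg-5, hrg-4 and hrg-6 follow one another in this order among the protein-coding genes of the WBcel235 assembly, and their proteins are related. Whether transcripts of the neighbours bind the hrg-4 probes was not tested.

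Of the secreted factors, hrg-7 (gene 182635) had the largest difference of the 5 genes with all arrays, and also the widest spread among ABZ arrays. Its log2 signal was 11.859, 11.002 and 11.029 in ABZ replicates 1 to 3, against 10.94, 10.39 and 10.29 in DMSO replicates 1 to 3. The array numbered 1 was the highest in each group, and the lowest ABZ array was 0.065 above the highest DMSO array. The mean was 11.30 ± 0.49 over the ABZ arrays and 10.54 ± 0.35 over the DMSO arrays (SD, n = 3 each), which gives a log2 difference of 0.76 (SE 0.29) or 1.69-fold. Without DMSO replicate 1 the difference was 0.96 (SE 0.27), without ABZ replicate 1 it was 0.48 (SE 0.23), and without both it was 0.68 (SE 0.07). Within each group, sperm markers were highest on the array numbered 1, as were both hrg-7 and hrg-1. The part of sperm content in the spread of these genes was not tested.

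The maternal heme carrier gene hrg-3 (gene 179369) was dim: only 5.87% of the probe sets had a lower mean signal, and the files hold no call on whether it lies above background. Its log2 signal was 5.99, 5.55 and 5.81 in ABZ replicates 1 to 3, against 5.29, 5.56 and 5.50 in DMSO replicates 1 to 3. The groups overlapped, because ABZ replicate 2 lay 0.015 below DMSO replicate 2. The mean was 5.78 ± 0.22 over the ABZ arrays and 5.45 ± 0.14 over the DMSO arrays (SD, n = 3 each). This gives a log2 difference of 0.33 (SE 0.15). Without DMSO replicate 1 the difference was 0.26 (SE 0.13), and without replicate 1 of both groups it was 0.15 (SE 0.11).

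The reductase gene emb-8 (gene 175710) had a log2 signal of 10.46, 10.49 and 10.31 in ABZ replicates 1 to 3, against 9.38, 10.14 and 10.30 in DMSO replicates 1 to 3. Its ABZ arrays lay closest together of all 5 genes, within 0.18, and its DMSO arrays farthest apart, over 0.92. The lowest ABZ array exceeded the highest DMSO array by 0.0021, so the groups touched. The mean was 10.42 ± 0.10 over the ABZ arrays and 9.94 ± 0.49 over the DMSO arrays (SD, n = 3 each), which gives a log2 difference of 0.48 (SE 0.25) or 1.39-fold. Without DMSO replicate 1 the difference was 0.19 (SE 0.09) or 1.14-fold.

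**Figure D2:**
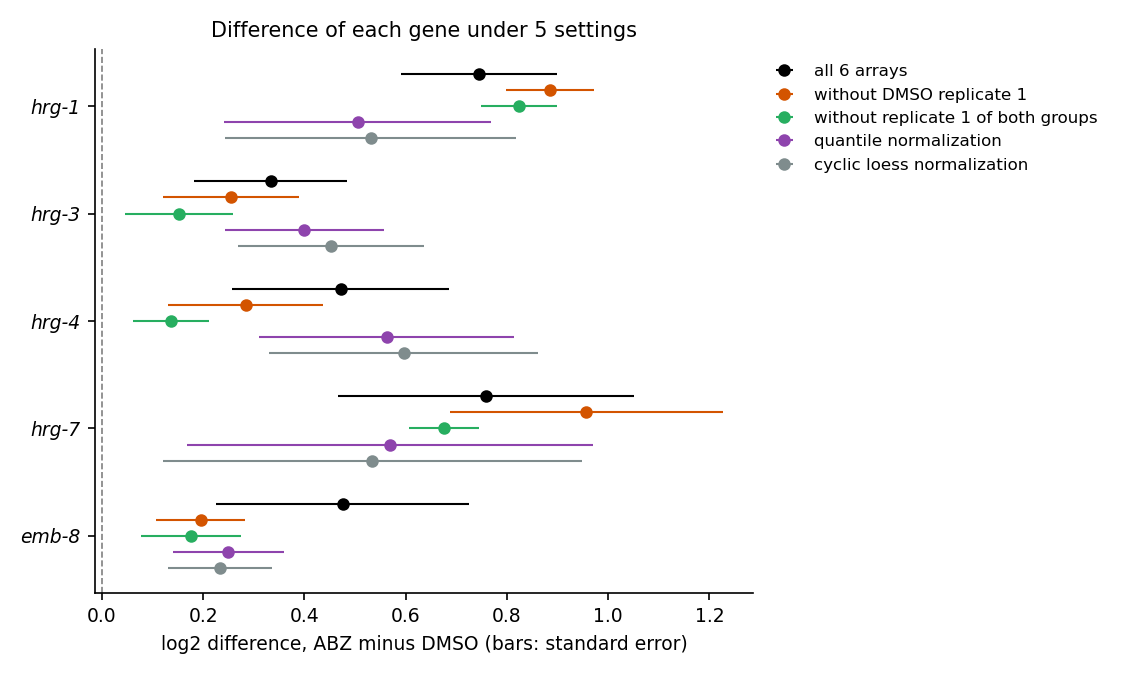
Log2 difference (ABZ minus DMSO, horizontal axis; bars are standard errors from limma) of each gene under 5 settings. The points of hrg-1 lie between 0.51 and 0.89, those of hrg-7 between 0.53 and 0.96, and those of emb-8 drop to 0.25 or less in each setting other than all 6 arrays.

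The genes of this group did not follow DMSO replicate 1 in the same way. Relative to the mean of DMSO replicates 2 and 3, that array was higher by 0.42 for hrg-1 and by 0.60 for hrg-7, and its differences were -0.23 for hrg-3, -0.56 for hrg-4 and -0.84 for emb-8. Over the 1000 probe sets closest to each gene in mean signal, the median of the same difference was -0.67 around hrg-1, -0.64 around hrg-7 and -0.74 around emb-8. Around the dimmer genes hrg-3 and hrg-4 it was 0.22 and 0.24. On this array, then, emb-8 lay where other probe sets of its brightness lay, within their middle range (quartiles) of -0.98 to -0.48. The 4 hrg genes lay outside the middle range of their neighbours, and on the opposite side of 0 from the neighbours' median.

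**Figure D3:**
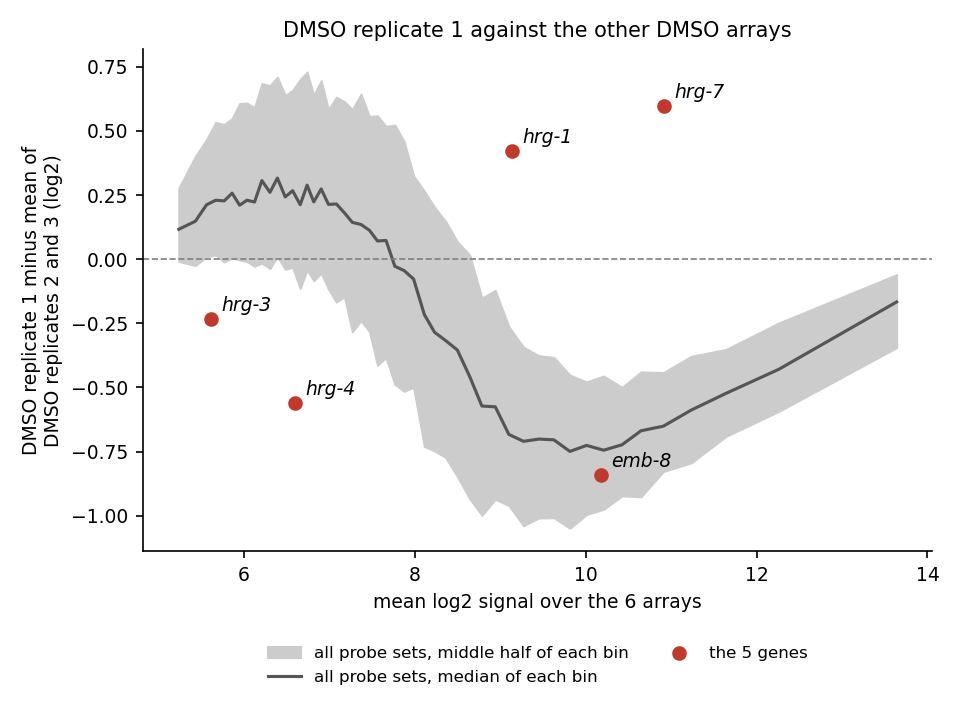
Difference of DMSO replicate 1 from the mean of DMSO replicates 2 and 3 (log2, vertical axis) against the mean log2 signal over the 6 arrays (horizontal axis), with the median (line) and middle range (band) of all probe sets in bins of signal. The point of emb-8 at -0.84 lies within the band, and those of hrg-1 at 0.42 and hrg-7 at 0.60 lie above it.

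Scaling that forces all arrays to one distribution moved these values. Under quantile normalization hrg-1 stood at 9.50, 9.29 and 9.44 with ABZ, against 9.51, 8.63 and 8.58 with DMSO, so DMSO replicate 1 rose into the ABZ values. The same happened to hrg-7, at 11.78, 10.89 and 10.91 with ABZ against 11.38, 10.30 and 10.19 with DMSO. Under this scaling the ABZ values lay above all DMSO values for hrg-3 and hrg-4 only, and the same held under cyclic loess normalization. The share of all probe sets that stand apart under these scalings is not given here, so nothing is read from this. The group means kept their order for all 5 genes under both scalings, with log2 differences of 0.51 and 0.53 for hrg-1 and 0.57 and 0.53 for hrg-7.

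The 4 hrg genes shared an order among the ABZ arrays, with replicate 1 highest and replicate 2 lowest in each, whereas emb-8 was highest in replicate 2 and lowest in replicate 3. Among DMSO arrays, replicate 1 was the highest for hrg-1 and hrg-7 and the lowest for hrg-3, hrg-4 and emb-8. With each gene centred on its own mean, hrg-3 and hrg-4 were the closest pair over the 6 arrays, at a root mean square distance of 0.14 on the log2 scale, and hrg-1 and hrg-7 were 0.23 apart. The farthest pair was hrg-7 and emb-8, at 0.57.

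By the same distance, and among genes with at least 0.8 times its SD over the arrays, the genes closest in pattern to hrg-1 were clec-67 at 0.11, a C-type lectin gene, hpo-6 at 0.15 and mul-1 at 0.16. Without DMSO replicate 1 they were hpo-6 at 0.083, clec-67 at 0.12 and cld-9 at 0.12, so 2 of the 3 were shared. For emb-8 they were nhr-66 at 0.035, a nuclear hormone receptor gene, W06A7.4 at 0.046 and kgb-1 at 0.049, a gene of a stress-activated protein kinase. Without DMSO replicate 1 they were ZC449.5, oig-1 and F14H3.12, each at 0.023 to 0.027, and 0 of the 3 were shared. Many genes are compared over few arrays here, so the distances describe these arrays only.

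**Figure D4:**
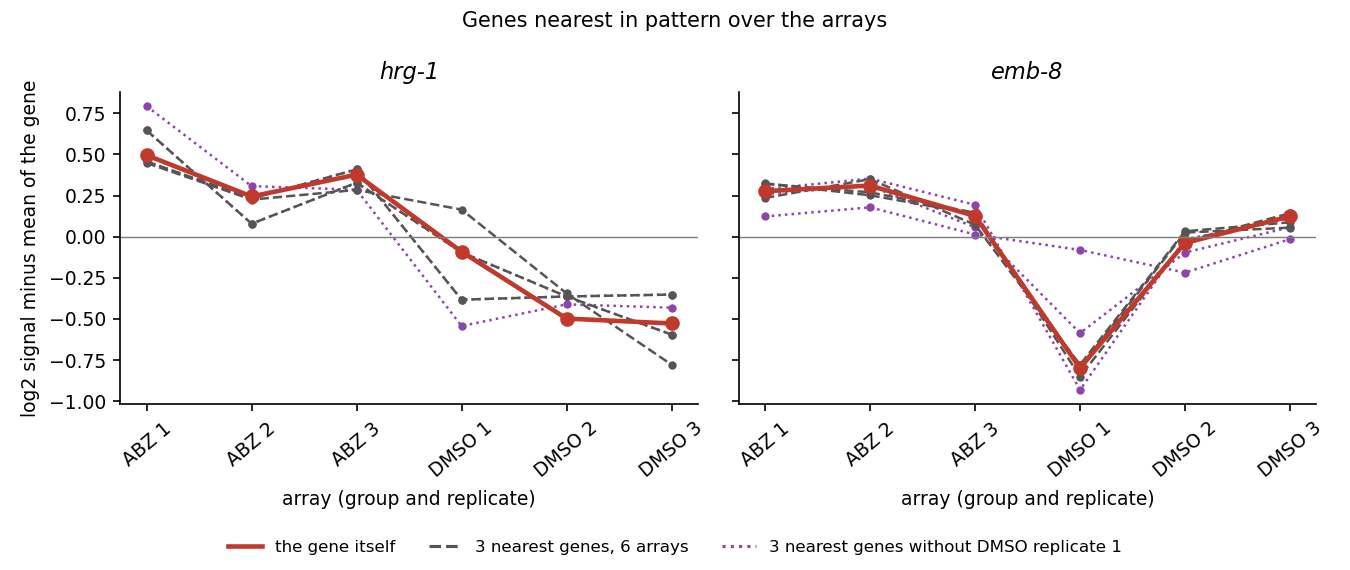
Log2 signal minus the mean of the gene (vertical axis) on each array (horizontal axis, ABZ then DMSO) for hrg-1 and emb-8 (solid red), the 3 nearest genes over 6 arrays (dashed grey) and the 3 nearest without DMSO replicate 1 (dotted violet); lines only join the points of a gene. The values of hrg-1 are high on the 3 ABZ arrays, while emb-8 and its 3 nearest genes over 6 arrays are lowest on DMSO replicate 1.

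Other genes with an hrg symbol were read from their brightest probe sets, and 7 were measured. With all 6 arrays, 4 had a positive log2 difference. The groups stood apart for 0 of the 7 (17.4% of all genes, in either direction). Without DMSO replicate 1 the ABZ values lay below the DMSO values for hrg-10 and for hrg-11.4, whose log2 difference went from -0.05 to -0.26. The share of all genes that stand apart without that array is not given here. The gene hrg-9, described as moving heme out of storage sites, had -0.01 on its brighter probe set and -0.45 on the other. On that other probe set DMSO replicate 1 read 7.11 and the other 5 arrays 5.98 to 6.16. The ABZ values lay below the DMSO values there by 0.042, as they did on 10.1% of all probe sets. Without DMSO replicate 1 the difference on it was -0.12. The relative of hrg-9, hrg-10, stood at 8.67, 9.30 and 8.96 with ABZ against 8.88, 9.58 and 9.65 with DMSO. Its log2 difference was -0.39 (SE 0.26), and -0.64 without DMSO replicate 1. Probe sets of a gene did not always match: hrg-13 had 0.40 on its brightest probe set, 0.52 on the second, where ABZ lay above DMSO, and 0.03 on the third. These were 0.04, 0.29 and 0.12 without DMSO replicate 1.

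Further genes of heme handling were read from 5 lists of gene names, and 0 of their measured genes were called higher or lower. In the list of other heme transporters and of enzymes that modify or attach heme, 5 of 7 measured genes had a positive difference, with a median of 0.16, and 3 of 7 without DMSO replicate 1, with a median of -0.02. The gene mrp-5, whose transporter exports heme from the intestine, had a log2 signal of 10.49, 10.24 and 10.10 with ABZ, against 9.17, 10.06 and 10.11 with DMSO. The 2 groups overlapped, and its log2 difference of 0.50 (SE 0.28) was 0.20 without DMSO replicate 1.

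Of the 10 genes that pass electrons beside emb-8 or encode P450 enzymes known to work with such a reductase, 9 had a positive difference with all arrays (median 0.31) and 3 without DMSO replicate 1 (median -0.05). Over all genes, 52.2% were positive with all arrays and 41.4% without that one. The groups stood apart, with ABZ above, for 2 of the 10, cytb-5.1 and cyp-29A3, and for 7.17% of all genes. The gene cytb-5.1 encodes a cytochrome b5, a heme protein that can hand electrons to P450 enzymes, and had 11.94, 12.63 and 11.92 with ABZ against 11.34, 11.75 and 11.56 with DMSO. Its log2 difference of 0.61 (SE 0.23) was 0.51 without DMSO replicate 1. The P450 gene cyp-29A3 had 7.70, 8.11 and 7.73 with ABZ against 7.58, 7.27 and 7.25 with DMSO, a log2 difference of 0.48 (SE 0.16), and 0.58 without DMSO replicate 1. Both genes were highest on ABZ replicate 2, the array on which hrg-1, hrg-4, hrg-7 and hrg-3 had their lowest ABZ values. The eggshell P450 genes cyp-31A2 and cyp-31A3, which act with emb-8 in the embryo, overlapped between groups, with 0.21 and 0.30, and -0.06 and -0.08 without DMSO replicate 1.

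In the iron list, 6 of 9 measured genes had a positive difference (median 0.11, and -0.01 without DMSO replicate 1). The ferritin genes ftn-1 and ftn-2, which store iron, had log2 differences of -0.02 and 0.09. Only the dim metal transporter gene smf-2 stood apart in this list, at 5.53 to 5.68 with ABZ against 5.69 to 5.86 with DMSO. Among 21 heme enzymes, such as catalase, peroxidases and heme-binding guanylate cyclases, 8 were positive with a median of -0.06, which was 0.01 without DMSO replicate 1, and the groups stood apart for 3, with 1 above and 2 below in ABZ; of all genes 52.2% were positive and 17.4% stood apart. The peroxidase gene skpo-1 lay above in ABZ by only 0.0021, so its groups touched. Its log2 difference was 0.28 (0.07 without DMSO replicate 1). The guanylate cyclase gene gcy-37 lay below by 0.15, with a log2 difference of -0.20 (-0.18 without DMSO replicate 1).

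Of 30 globin genes, whose proteins bind heme, 8 were positive with a median of -0.13, and 16 were positive with a median of 0.00 without DMSO replicate 1. Most globin probe sets were dim, and the median difference of the 1000 probe sets closest to each in mean signal was itself -0.12 at the median over the 30 genes. The groups stood apart, with ABZ below, for 4 of the 30 globins, against 10.2% of all genes. The 2 with the largest differences were glb-5 at -0.53 (-0.14 without DMSO replicate 1) and glb-2 at -0.34 (-0.10 without it). Neither was bright: glb-5 lay at 5.81 to 5.94 with ABZ against 6.02 to 7.20 with DMSO.

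**Figure D5:**
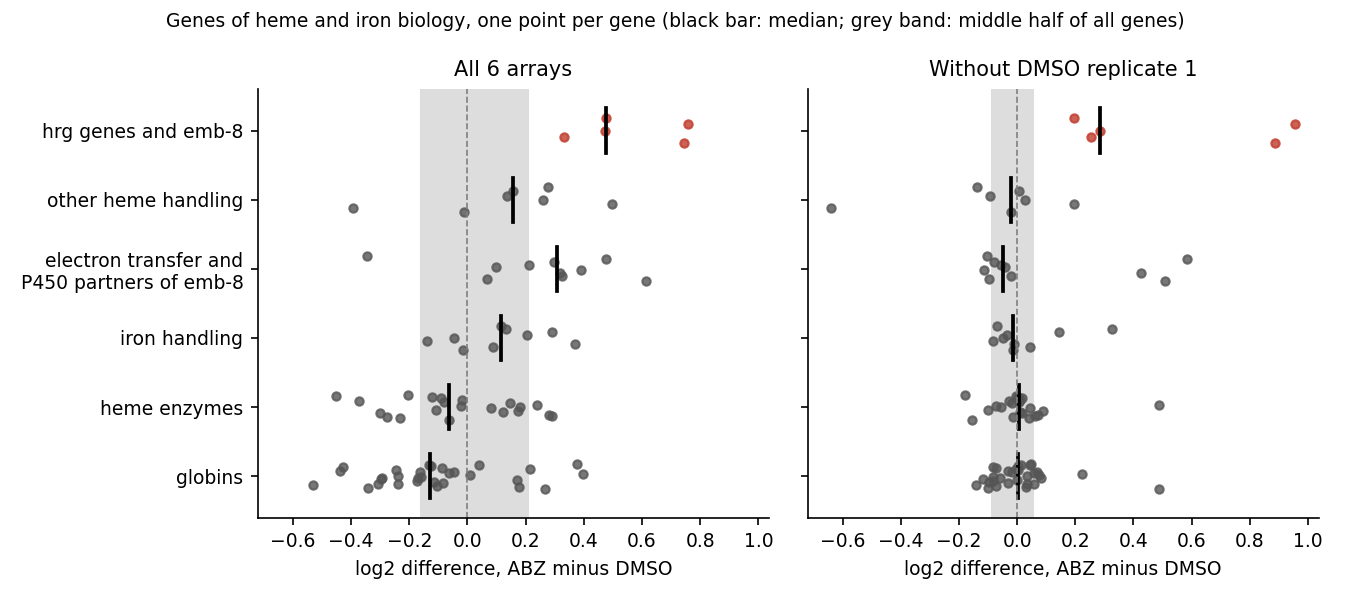
Log2 difference (ABZ minus DMSO, horizontal axis) of each gene with all 6 arrays (left) and without DMSO replicate 1 (right), for the hrg genes and emb-8 (red) and the 5 lists (grey points); the black bar is the median and the grey band the middle range of all genes. Without DMSO replicate 1 the list medians lie between -0.05 and 0.01, and hrg-1 and hrg-7 keep differences of 0.89 and 0.96.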

How the data were processed

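The authors deposited 1 value per probe set and array. Per the submitters' processing notes, RMA and limma were used, without versions or order; their scale is not stated, and the deposited values, which run from 4.89 to 14.9, were taken as log2 signal. The 77 control probe sets were left out. Names came from the platform annotation (20766 of 22548 probe sets list 1 gene); a gene is represented by its brightest probe set. Symbols were checked against a RefSeq table of WBcel235, with 20701 found and 0 changed. No sequences were used here.

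Groups were compared with limma 3.58.1 in R 4.3.3 (group as only term, eBayes, two-sided, Benjamini-Hochberg over all 22548 probe sets); SE is from this fit. The steps were tested on simulated data. Named were all members, the 2 genes with the largest differences among those standing apart in each list, and the 3 nearest in pattern to hrg-1 and emb-8. The genes hrg-9, hrg-10, hrg-11.4, hrg-13, mrp-5, cyp-31A2, cyp-31A3, ftn-1 and ftn-2 were named outside this rule after their values were seen. Members, lists and rules were chosen with earlier results of these data known. Markers of epidermis, muscle, pharynx, neurons and germline were also read; their 19 genes had medians of -0.09, 0.05, 0.27, 0.41 and 0.16, and without DMSO replicate 1 of 0.16, -0.07, 0.02, 0.16 and -0.20. Leaving out replicate 1 of both groups was added after the values were seen. The labels call the samples biological replicates; the design text speaks of matched cultures but does not say that the replicate numbers mark the matching, and 3 arrays a group limit the precision.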

Additional observations from a re-analysis of the deposited data

How the results depend on the processing

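All 5 genes kept a positive log2 difference in every alternative in which they were tested, with ranges of 0.51 to 0.89 for hrg-1, 0.15 to 0.45 for hrg-3, 0.14 to 0.60 for hrg-4, 0.48 to 0.96 for hrg-7 and 0.18 to 0.66 for emb-8. In some alternatives the difference is the same by construction: the replicate block, limma's intensity trend and robust settings, and the dimmest probe sets left out. The genes also came from this contrast, so nothing is read from the signs. With the dimmest probe sets left out (1 in 3), 3 of 3 tested members were positive, since hrg-3 and hrg-4 were among the probe sets removed. The count of 0 called probe sets was 28 with array weights and 5 with gene-by-gene weights, and 420 passed at an unadjusted p under 0.05; hrg-1 was the 1 member called under each kind of weights, which supports nothing, since its difference was in view when the genes were chosen; the cause was not tested. The median of the list of electron transfer genes and P450 partners was 0.31 with all 6 arrays. It was -0.023 with gene-by-gene weights and -0.049 without DMSO replicate 1. When each array, ABZ or DMSO, was left out in turn, this median ranged from -0.049 to 0.39. The gene-by-gene weights changed every array, with 0.90, 2.66 and 1.73 for ABZ replicates 1 to 3. For DMSO replicates 1 to 3 they were 0.043, 3.83 and 1.47. With the replicate number as a block, 0 probe sets were called, and the differences were the same. The SE was 0.13 for both hrg-1 and hrg-7 with the block, against 0.15 and 0.29 without it. It rose for hrg-3 from 0.15 to 0.18 and for hrg-4 from 0.21 to 0.26, and for emb-8 it was 0.24 against 0.25. Deviations of same-numbered arrays from their group means correlated at 0.12, 0.26 and 0.07, and each array correlated best with its own number. These values cannot show whether the numbers mark pairs. The main fit took no pairs because the labels state none. The groups of emb-8, 0.0021 apart, overlapped when arrays were shifted to one median. The files hold no detection calls, so the dim signals of hrg-3 and hrg-4 cannot be placed against background.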
